A study of Mus musculus with 9 samples.

Results

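The comparison described here sets 3 ClpX conditional knockout (cKO) libraries against 3 control libraries, 6 of the 9 libraries of the study. It covers the 17266 of 54532 annotated genes whose mean over the 9 libraries was at least 1 FPKM (reads per kilobase of gene, scaled by a size factor of each library). All libraries came from mouse primary cells that the labels call male germ cells and title spermatocytes, taken on postnatal day 35. The controls are labelled WT and the others ClpX knockout or ClpP knockout, and either gene was deleted in germ cells through Stra8-Cre. The Stra8 promoter becomes active in spermatogonia shortly before meiosis, so cells up to that point keep the gene. Floxed alleles, the way cells were isolated, batches and the animals behind each library are not given in the sources used here. The libraries of a group may therefore be technical repeats, and a p-value speaks only of the scatter among the 3 of them.

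ClpX is an ATPase of the mitochondrial matrix that unfolds proteins. It hands many of them to the ClpP protease, with which it forms the ClpXP complex, and it also acts alone as an unfoldase, for example on the first enzyme of haem synthesis. In the testis, mitochondria change form and enzyme content as spermatogonia become spermatocytes and spermatids, and pachytene spermatocytes and spermatids use their own copies of many metabolic enzymes.

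Clpx transcripts were at 59.3, 55.7 and 54.7 FPKM in the controls and at 15.6, 11.3 and 13.2 FPKM in the ClpX cKO libraries. All knockout libraries lay far below all controls. On the scale used throughout, the difference in mean log2(FPKM + 1) between ClpX cKO and control (the log2 change, ± its SE from a fit with limma), Clpx changed by -2.01 ± 0.11 (adjusted p = 1.6e-04). Clpp, the partner protease gene, was at 9.36, 8.46 and 9.36 FPKM in the controls and at 12.8, 12.5 and 14.1 FPKM in ClpX cKO. Its increase (0.49 ± 0.14, limma adjusted p = 0.014) lost its call without ClpX cKO 3, where it was 0.44.

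The libraries held 14334436 to 17021685 gene reads. On the first principal component, which took 66.5% of the variance, Control 3 and ClpX cKO 1 lay apart from the rest of their groups, each towards the other group. Leaving both out changed the number of called genes from 11326 to 11449, and list medians without them are given below where they differ by over 1.5 times and by more than 0.1. Genes of other cells than spermatocytes were present in the controls. The listed Sertoli cell markers summed to 718 to 747 FPKM there, Leydig cell markers to 244 to 443 FPKM and macrophage markers to 46.6 to 60.1 FPKM. Among the synaptonemal complex genes that define meiotic prophase, Sycp1 was at 59.5, 65.4 and 80.7 FPKM in the controls and at 75.2, 79.8 and 91.4 FPKM in ClpX cKO. The 2 groups overlapped for this gene, and its log2 change of 0.27 ± 0.12 was not called. In RNA from mixed cells, fewer cells of a type and less RNA per cell cannot be told apart, which holds for every change below.

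Calls are at a limma adjusted p (Benjamini-Hochberg) under 0.05. Of the 17266 genes, 11326 (65.6%) were called, 5548 higher (32.1%) and 5778 lower (33.5%) in ClpX cKO, and the median log2 change was -0.00. Among the 12827 protein-coding genes 5138 (40.1%) were higher and 3912 (30.5%) lower. These shares are the background for every list below. The 3 knockout values lay wholly above or below the 3 control values in 12050 genes (69.8%). The deposited values follow median-of-ratios size factors, which hold the typical change near 0. Scaling by each library's own total of gene reads, in place of the deposited scaling, moved the median over all genes to 0.18. The calls were then 7366 higher and 4265 lower. Quantile normalization moved the median to 0.09 and the calls to 6299 higher and 4689 lower. A gene or list median close to 0 therefore has no firm direction. Own totals raised the medians of all 55 gene lists described below, by 0.11 to 0.23, and moved 27 of them by over 1.5 times. Quantile normalization raised 53, by up to 0.47, and moved 17 by over 1.5 times. These values stand beside most lists whose sign changed and beside some others. A list printed without them may have moved as well. At the filter, Gm42372 just passed with a mean of 1.0005 FPKM and Zfp994 with 1.0009, while Neb (0.9988) and the stress hormone gene Fgf21 (0.9984) just failed. Fgf21 was at 1.17, 1.31 and 1.85 FPKM in the controls and at 0.749, 0.36 and 0.924 FPKM in ClpX cKO.

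On the scale of FPKM + 1, used for every fold here and below, losses were larger than gains. Changes of 2-fold or more were called for 318 genes that rose and 1810 that fell. Changes of 4-fold or more were called for 21 that rose and 188 that fell. The added 1 understates changes of low genes, and genes low in the controls rose more often than high ones (below). Of the 21, 14 were genes of the mitochondrial genome and none was protein-coding, whereas 147 of the 188 were protein-coding. The long noncoding classes fell together: of 1210 lincRNA genes 744 fell and 70 rose (median -0.70), and of 812 antisense genes 447 fell and 53 rose (median -0.57). Whether the counting used strand is not stated, so reads of an antisense gene and of its partner could be mixed. Of 196 annotated miRNA genes, whose short products the libraries were not made to capture, 34 rose and 7 fell (median 0.20).

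The direction followed the level in the controls. Of the 541 protein-coding genes above 100 FPKM in the controls, 452 (83.5%) fell and 38 rose, with a median log2 change of -0.80 (-0.23 under quantile normalization). Between 20 and 100 FPKM 62.3% of 2706 genes fell (median -0.37). Between 1 and 5 FPKM 53.9% of 4536 genes rose and 12.4% fell (median 0.34). The control values enter both the level and the change, and genes under 1 FPKM in the controls passed the filter only through the knockouts, so they are not counted here.

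**Figure D1:**
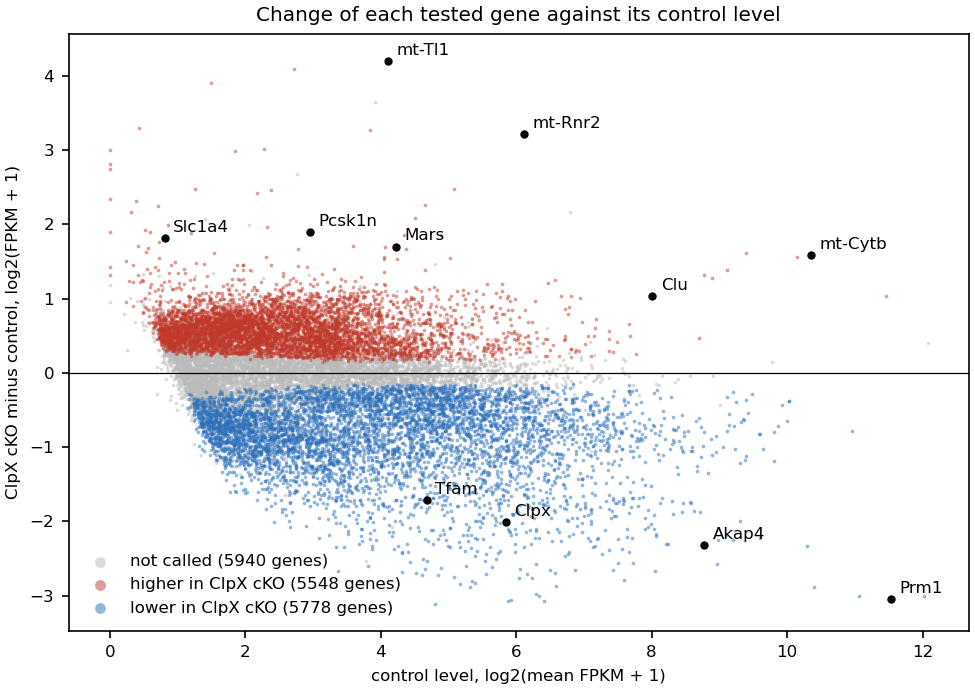
The log2 change of every tested gene (vertical axis, ClpX cKO minus control) is plotted against its control level (horizontal axis, log2 of mean FPKM + 1). Black points are named genes, red points are the 5548 genes called higher, blue points the 5778 called lower and grey points those not called; the cloud tips downward to the right, and the labelled mitochondrial genes lie above it.

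By chromosome, the X stood apart. Of its 526 tested protein-coding genes 326 (62%) rose and 114 (21.7%) fell, with a median log2 change of 0.53. On the 19 autosomes the share that rose ran from 33.3 to 45.7%, the share that fell from 28.2 to 34.9%, and the median from -0.03 to 0.19. These counts include genes under 1 FPKM in the controls, which passed the filter only through the knockouts. Of 438 such protein-coding genes over all chromosomes 331 rose and none fell. The X and the autosomes were not matched for control level. Most X-linked genes are silenced in pachytene spermatocytes and expressed in spermatogonia and somatic cells, and markers of both rose (below). Their part in the X-linked increase was not tested. Some transcription factor families, as the deposited annotation assigns them, leaned upward: 23 of 32 bZIP factors rose and 4 fell (median 0.56), and 30 of 44 bHLH factors rose and 4 fell (median 0.47). The large zf-C2H2 family had 133 of 351 higher and 73 lower (median 0.10), and the Homeobox family 17 of 50 higher and 19 lower (median 0.01).

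The largest protein-coding increases held a neutral amino acid transporter, a tRNA synthetase and genes of the mitochondrial genome. Slc1a4, which carries alanine, serine and cysteine, was at 0.676, 1.02 and 0.579 FPKM in the controls and at 3.79, 6.87 and 5.15 FPKM in ClpX cKO (log2 change 1.81 ± 0.21). With a control mean of 0.757 FPKM it passed the filter only through the knockouts, and so did Tnfrsf12a (0.818 FPKM). Agt, which encodes angiotensinogen, was at 21.2, 20.8 and 17 FPKM in the controls and at 84.4, 54.7 and 57.3 FPKM in ClpX cKO (1.66 ± 0.38). AU021092 was at 16.4, 16.7 and 14.5 FPKM in the controls and at 71, 33.5 and 62.9 FPKM in ClpX cKO (1.69 ± 0.28). For Slc1a4, Agt and AU021092 every knockout library was above every control. The 12 largest changes in each direction were named only where the groups did not overlap, so that separation was set by the rule. The other increases among the 12 largest were Tnfrsf12a, Pcsk1n, Scara3, Mars and 5 mitochondrial genes, with log2 changes of 1.56 to 1.99.

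Among the 12 largest decreases were genes of sperm chromatin and the sperm tail and several genes known only by a clone number. One of these, 1700008P02Rik, fell most (-3.11 ± 0.30), from 25.8, 37.9 and 16.9 FPKM in the controls to 2.58, 1.09 and 2.84 FPKM. Ubqlnl, a testis member of the ubiquilin family, was at 94.6, 105 and 40.6 FPKM in the controls and at 10.9, 7.06 and 7.45 FPKM in ClpX cKO (-3.01 ± 0.34). Cabs1, a calcium-binding protein of the sperm tail, was at 219, 249 and 109 FPKM in the controls and at 37.9, 21 and 20.3 FPKM in ClpX cKO (-2.79 ± 0.33). In each of these 3 genes Control 3 was the lowest control. It lay above all knockout libraries, as the rule for naming these genes required. Others among the 12 were Tnp1 (-2.89 ± 0.29), 1 of the 2 transition protein genes of spermatid chromatin, Gm136 (-2.88 ± 0.25) and Car2 (-2.85 ± 0.38), a carbonic anhydrase.

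Transcripts of the mitochondrial genome rose. Reads of mitochondrial genes took 0.833, 0.9 and 0.956% of gene reads in the controls and 2.23, 2.94 and 2.9% in ClpX cKO, means of 0.896 ± 0.0616% and 2.69 ± 0.399% (SD, n = 3 each). All 13 protein genes were called higher (median log2 change 1.39, range 0.78 to 1.85), as were both rRNA genes and 16 of the 17 tested tRNA genes (median 2.46). Of the 17, 5 had control means under 1 FPKM, 3 of them at 0 in every control, and passed the filter only through the knockouts, as did mt-Atp8. Of the other 12 tRNA genes 11 rose (median 2.44) and mt-Tr was not called. The call of mt-Co1 was lost when no filter on low values was used (1.04, limma adjusted p = 0.075).

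The size of the increase differed along the genome. mt-Rnr2, the large ribosomal RNA, was at 63.3, 67.1 and 74.7 FPKM in the controls and at 551, 685 and 700 FPKM in ClpX cKO (3.21 ± 0.11). Its neighbour mt-Tl1, the leucine tRNA that follows it, was at 14, 18.3 and 16.6 FPKM in the controls and at 295, 311 and 341 FPKM in ClpX cKO (4.20 ± 0.10). mt-Rnr1, the small ribosomal RNA before it, was at 49.5, 50.9 and 62.6 FPKM in the controls and at 96.1, 141 and 142 FPKM in ClpX cKO (1.19 ± 0.17). None of the 3 genes overlapped between the groups, and the increases of mt-Tl1 and mt-Rnr2 were larger than those of all 13 protein genes. A messenger library captures rRNA and tRNA poorly, so these levels describe what the kit recovered. Among the tRNA genes, which were chosen here after their values were seen, mt-Ty was at 1.04, 5.86 and 9.85 FPKM in the controls and at 69.1, 84.4 and 123 FPKM in ClpX cKO (4.09 ± 0.53). mt-Tm was listed at 0, 0 and 1.06 FPKM in the controls and at 8.6, 14.1 and 12.7 FPKM in ClpX cKO.

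Nuclear copies of mitochondrial DNA can take reads from some of these genes. Of the 50-base stretches of mt-Co2, 100% also occurred in an annotated nuclear transcript, of mt-Co3 99.9%, of mt-Atp6 99.5%, of mt-Nd4l 98.8% and of mt-Nd3 98%. These 5 genes had 9.41 to 58.5 FPKM in the controls, far less than the 417 to 2947 FPKM of the 7 other protein genes apart from mt-Atp8, a short gene with no shared stretch and 0.642 to 1.08 FPKM. The levels of these 5 genes, and the differences between them, are therefore uncertain. Of mt-Nd4 62.2% and of mt-Co1 51.1% of the stretches were shared, so their values are uncertain in part. No stretch of mt-Nd1, mt-Cytb or mt-Nd6 was shared. mt-Nd1, a complex I subunit, was at 1113, 1162 and 1132 FPKM in the controls and at 3122, 3363 and 3557 FPKM in ClpX cKO (1.56 ± 0.11). mt-Cytb, the cytochrome b of complex III, was at 1269, 1298 and 1357 FPKM in the controls and at 3360, 4295 and 4188 FPKM in ClpX cKO (1.58 ± 0.13). mt-Nd6, read from the other strand, rose by 1.32 ± 0.14. The increase was thus also seen in genes without such copies.

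**Figure D2:**
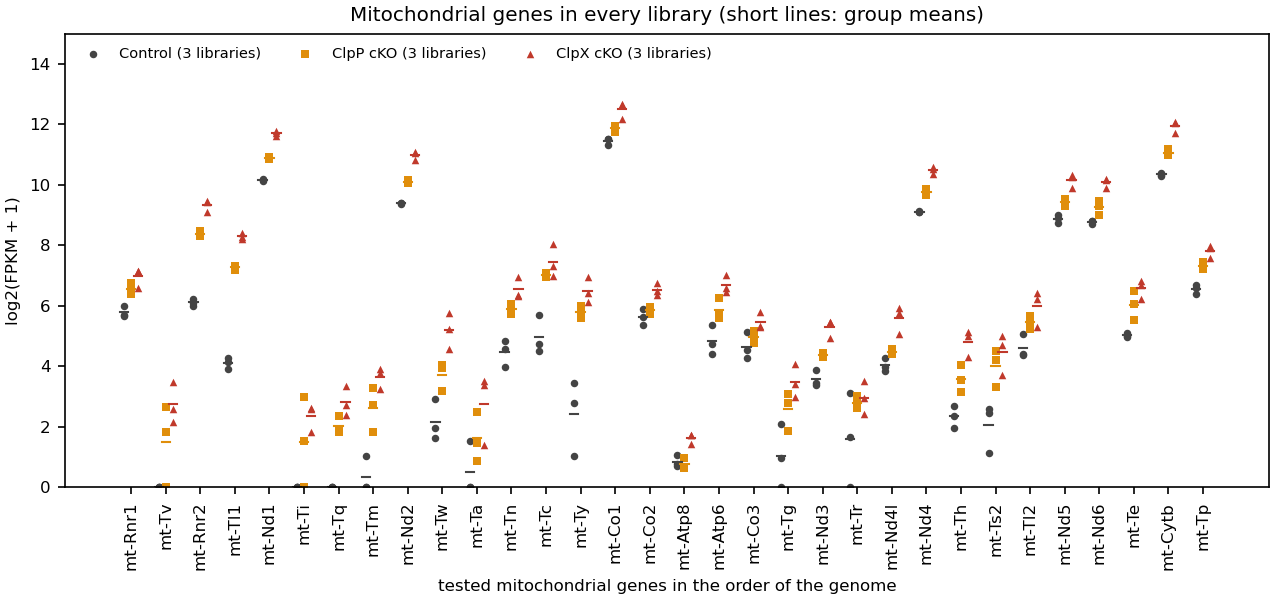
Each tested mitochondrial gene is shown in the order of the genome, with its log2(FPKM + 1) in the 3 control (dark grey), 3 ClpP cKO (orange) and 3 ClpX cKO (red) libraries and short lines at the group means. ClpX cKO lies above control for nearly every gene, and the gap is widest for mt-Tl1 (4.20) and mt-Ty (4.09).

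The nuclear genes that copy and transcribe mitochondrial DNA did not move as a block. Of 21 tested, 10 rose and 5 fell (median 0.14, -0.07 among genes of at least 5 FPKM). Tfam, which packs the DNA and starts its transcription, was the largest decrease, at 28.3, 28.9 and 16.8 FPKM in the controls and 6.99, 5.99 and 6.8 FPKM in ClpX cKO (-1.72 ± 0.20). Lig3, the ligase of mitochondrial DNA, also fell (-0.62 ± 0.07). The helicase Twnk (0.56 ± 0.10), the exonuclease Mgme1 (0.69 ± 0.08), the nuclease Endog (0.59 ± 0.13) and the RNA polymerase Polrmt (0.43 ± 0.10) rose. The polymerase Polg was at 15.5, 14.8 and 16.2 FPKM in the controls and at 15.1, 16 and 14.8 FPKM in ClpX cKO, and was not called.

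Among 35 tested factors of mitochondrial RNA processing and translation 16 rose and 6 fell (median 0.22). Nsun4, an rRNA methyltransferase needed to join the ribosomal subunits, fell from 55.8, 56.1 and 41.3 FPKM to 20.6, 12 and 12.6 FPKM (-1.72 ± 0.22). The recycling factor Mrrf fell by 0.46 ± 0.08. Hsd17b10, a subunit of the tRNA-processing enzyme RNase P, rose (0.82 ± 0.19), as did the ribosome assembly GTPase Noa1 (0.72 ± 0.13), the release factor Mtrf1l (0.68 ± 0.12) and Lrpprc (0.46 ± 0.07), which stabilises mitochondrial mRNA. Eral1, an rRNA chaperone known as a ClpXP substrate, rose by 0.38 ± 0.10. Of 77 mitochondrial ribosomal protein genes 31 rose and 8 fell (median 0.18), from Mrps36 (-1.11 ± 0.22), whose product is also a part of the oxoglutarate dehydrogenase complex, to Mrps24 (0.91 ± 0.11).

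Of 12 tested matrix chaperones and partners of the Clp protease, 5 rose and 1 fell (median 0.22). The gene that fell was Clpb, a disaggregase of the intermembrane space and a relative of Clpx, at 59.2, 64.1 and 36.9 FPKM in the controls and 19.3, 13.5 and 13.9 FPKM in ClpX cKO (-1.70 ± 0.21). Hspd1, the matrix chaperonin, rose from 21.9, 22.4 and 24.7 FPKM to 38.1, 41.5 and 51.9 FPKM (0.89 ± 0.11). Its cofactor Hspe1 was at 19.9, 14.5 and 16.4 FPKM in the controls and at 18.4, 20.5 and 25.8 FPKM in ClpX cKO, with overlapping groups and no call. The Lon protease gene Lonp1 (0.80 ± 0.09) and the nucleotide exchange factor Grpel2 (0.59 ± 0.10) rose. The 16 inner membrane proteases and processing peptidases split evenly, 5 higher and 6 lower, with a median of 0.03. That median turned negative without Control 3 and among genes of at least 5 FPKM. It was 0.24 with own totals and 0.15 under quantile normalization. Mipep, which trims imported proteins, fell (-1.08 ± 0.13), and so did the peptidase subunit Immp2l (-0.68 ± 0.12). The intermembrane protease Htra2 (0.60 ± 0.15), the scaffold Stoml2 (0.60 ± 0.10) and the stress protease Oma1 (0.43 ± 0.12) rose.

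Import genes were also mixed, with 10 of 29 higher and 7 lower (median 0.16). The largest decrease was in Tomm20l, a testis relative of the receptor Tomm20, from 50.9, 39.3 and 47 FPKM to 18.3, 10.1 and 20.5 FPKM (-1.48 ± 0.22). Gfer, which oxidises imported intermembrane proteins, fell by 0.89 ± 0.13. Of 21 genes of fission, fusion and cristae 10 fell and 1 rose, with a median of -0.18 that became 0.02 under quantile normalization and 0.04 with own totals. The decreases were led by 2410015M20Rik (-1.07 ± 0.15), a subunit of the cristae organising complex MICOS, and the fission regulator Mtfr1 (-1.03 ± 0.11). Chchd3, another MICOS subunit, fell by 0.66 ± 0.08. The core GTPases were not called: Dnm1l was at 21.5, 22.1 and 23.6 FPKM in the controls and at 23, 22.7 and 23.6 FPKM in ClpX cKO, and Mfn1 (0.07 ± 0.06) and Opa1 (0.14 ± 0.06) moved little.

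Haem genes are of interest because ClpX activates the enzyme that starts haem synthesis. Of 18 tested genes of haem synthesis and breakdown 12 rose and 3 fell (median 0.43, above the 0.11 of all protein-coding genes). The first enzyme of non-erythroid cells, Alas1, was not called, at 29.9, 33.2 and 21.9 FPKM in the controls and at 27.5, 20.3 and 29.5 FPKM in ClpX cKO. The second, Alad, was at 21.8, 24.6 and 16.4 FPKM in the controls and at 36.1, 42.7 and 48.2 FPKM in ClpX cKO (0.99 ± 0.21). Later steps rose as well, Cpox by 0.61 ± 0.10 and the iron-inserting Fech by 0.41 ± 0.07. On the breakdown side the inducible oxygenase gene Hmox1 rose (0.90 ± 0.19) along with Blvrb (0.85 ± 0.11), a biliverdin reductase. The constitutive oxygenase gene Hmox2 fell from 135, 136 and 95.6 FPKM to 57.4, 41.7 and 42.2 FPKM (-1.35 ± 0.17). Hmox1 is abundant in macrophages, whose markers rose too, and their part in its increase was not tested.

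Iron-sulfur cluster genes showed no common direction, with 4 of 24 higher and 6 lower and a median of -0.02 that became 0.07 under quantile normalization and 0.19 with own totals. The iron importer gene Slc25a37 (-0.99 ± 0.18), Bola1 (-0.74 ± 0.10) and Isca1 (-0.55 ± 0.08) fell. Glrx5 (0.61 ± 0.13), which passes clusters on, rose. The scaffold gene Iscu was at 22.9, 25.8 and 24.4 FPKM in the controls and at 24.8, 21.8 and 24.5 FPKM in ClpX cKO, with no call.

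Energy metabolism separated by isoform. Among 20 testis forms of metabolic enzymes 18 fell and 1 rose (median -0.88), while of 19 somatic forms of the same enzymes 13 rose and 4 fell (median 0.71). The 20 include Hk1, Pfkp, Slc2a3 and Tpi1, which all fell. These genes are not restricted to the testis, and values per gene do not separate their sperm transcripts from others. Oxct2b and Oxct2a, germ cell forms of the ketone body enzyme, are near-identical copies whose reads could be split between them. Oxct2a was at 92.8, 96.7 and 43.6 FPKM in the controls and at 14, 10.3 and 10.2 FPKM in ClpX cKO (-2.58 ± 0.28). Gapdhs, the sperm glyceraldehyde phosphate dehydrogenase anchored in the tail, was at 628, 640 and 379 FPKM in the controls and at 163, 95.9 and 102 FPKM in ClpX cKO (-2.19 ± 0.25). Hk1, a hexokinase with sperm transcripts, was at 187, 193 and 130 FPKM in the controls and at 62.6, 37.6 and 39.7 FPKM in ClpX cKO (-1.86 ± 0.22). In all 3 genes no knockout library reached the lowest control. The exception to the direction was Slc25a31, the germ cell ATP/ADP carrier, which rose from 38, 35.3 and 36 FPKM to 42.7, 50.6 and 44 FPKM (0.32 ± 0.08).

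The ratio of a testis form to its somatic form, as the difference of their log2(FPKM + 1) values in the same library, does not depend on the scaling of the library except through the added 1. It was lower in ClpX cKO in all 16 pairs examined, and the groups did not overlap in 14, with a median difference of -1.17 between the group means. For Pgk2 against Pgk1 it was 5.36, 5.22 and 5.05 in the controls and 3.45, 2.75 and 2.75 in ClpX cKO. The widest shift was that of Hk1 against Hk2 (-2.77), but Hk1, like Slc2a3 in its pair with Slc2a1, is not restricted to the testis. Among the other pairs Gapdhs against Gapdh shifted most (-2.47). The pair of Ldhc and Ldha did not shift, with 2.63, 2.67 and 2.57 in the controls and 2.64, 2.59 and 2.57 in ClpX cKO. For the respiratory chain, the cytochrome c pair Cyct and Cycs went from a mean of 2.74 ± 0.12 to 1.97 ± 0.34 and the pair Cox7b2 and Cox7b from 5.42 ± 0.06 to 4.10 ± 0.47 (SD, n = 3 each). In the ribosome, Rpl10l against its X-linked parent Rpl10 went from 3.40 ± 0.06 to 2.28 ± 0.32.

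**Figure D3:**
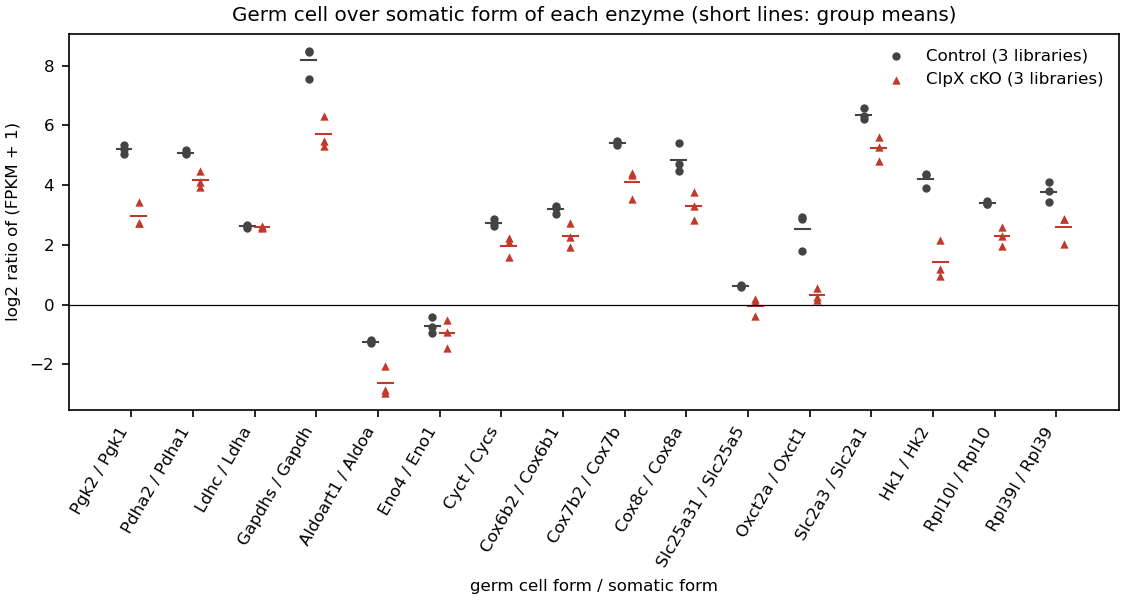
For 16 pairs the log2 ratio of (FPKM + 1) of the germ cell form over the somatic form is plotted per library, dark grey for the 3 controls and red for the 3 ClpX cKO libraries, with short lines at the group means. Red lies below grey in every pair except Ldhc / Ldha and Eno4 / Eno1, where the groups overlap.

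Of 30 citric acid cycle genes 13 rose and 7 fell (median 0.14, 0.38 under quantile normalization). The share that rose, 43.3%, was near the 40.1% of all protein-coding genes, whose median was 0.11 (0.20 under quantile normalization). Fatty acid oxidation genes rose in 14 of 26 and fell in 5 (median 0.34). Pdk2, a kinase that switches off pyruvate dehydrogenase, fell from 64.6, 67.5 and 66.6 FPKM to 46.4, 31.1 and 34.6 FPKM (-0.83 ± 0.14), and the pyruvate carrier subunit Mpc2 fell by 0.68 ± 0.09. X-linked Pdha1 (0.72 ± 0.12) and Idh3g (0.75 ± 0.11) and the synthase Cs (0.39 ± 0.09) rose. In the oxidation pathway Etfa (0.78 ± 0.13), which passes electrons to the chain, and Eci1 (0.77 ± 0.15) rose. Nuclear genes of complex I moved in both directions (9 of 44 higher, 8 lower, median 0.01, 0.28 under quantile normalization), from Ndufa4l2 (-1.07 ± 0.22) to Ndufa4 (0.88 ± 0.15). Among 49 genes of complexes II to V 16 rose and 8 fell (median 0.09, 0.37 under quantile normalization). Atp5e, the epsilon subunit of ATP synthase, stood alone, with 49.4, 39.6 and 24.5 FPKM in the controls, 7.27, 6.38 and 8.08 FPKM in ClpX cKO and 36.4, 38.9 and 41.2 FPKM in ClpP cKO.

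Stress genes and genes of amino acid supply rose in part. Of 14 tested genes of the integrated stress response, the translation block set off by phosphorylated eIF2alpha, 9 rose and 2 fell (median 0.54). Another 8 listed genes, among them Atf3 and Gdf15, did not pass the filter, and Gdf15 was at 0.264, 0.247 and 0.198 FPKM in the controls and at 0.16, 0.308 and 0.19 FPKM in ClpX cKO. Atf4, the central factor, rose from 18.4, 18.2 and 18.1 FPKM to 26.1, 33.2 and 32.9 FPKM (0.72 ± 0.09). Ddit4 (1.01 ± 0.13) and Sesn2 (0.92 ± 0.11), which restrain mTORC1, rose with it, as did Ppp1r15a (0.89 ± 0.13), which ends the response. Asns, the asparagine synthetase, fell instead, from 53.1, 57.4 and 38.3 FPKM to 25.4, 23.5 and 28.5 FPKM (-0.90 ± 0.16). Of the eIF2alpha kinases, Eif2ak4 (0.56 ± 0.08) and Eif2ak3 (0.63 ± 0.12) rose, whereas the haem-regulated Eif2ak1 was at 10.3, 11 and 11 FPKM in the controls and at 10.9, 11.7 and 12.2 FPKM in ClpX cKO. Dele1, which relays mitochondrial stress to that kinase, was at 41.1, 42.1 and 36.4 FPKM and at 42.9, 42.6 and 40.4 FPKM. Neither was called. In the unfolded protein response of the endoplasmic reticulum 12 of 21 genes rose and 3 fell (median 0.28), Xbp1 among the former (0.86 ± 0.12) and Herpud1 among the latter (-1.32 ± 0.22).

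Of 20 tested enzymes that make serine, proline, asparagine and one-carbon units 13 rose and 1 fell (median 0.54). Aldh18a1, the first enzyme of proline synthesis, was at 2.3, 2.46 and 2.25 FPKM in the controls and at 5.15, 8.08 and 5.92 FPKM in ClpX cKO (1.13 ± 0.15). The serine enzymes Phgdh (0.80 ± 0.17) and Psat1 (0.93 ± 0.15) and the mitochondrial Shmt2 (0.71 ± 0.14) rose. Mthfd2, the mitochondrial folate enzyme, was at 11.4, 11.5 and 11.8 FPKM in the controls and at 12.3, 15.5 and 16.3 FPKM in ClpX cKO, a change of 0.31 ± 0.11 that lost its call under some alternatives. Among 20 cytosolic aminoacyl-tRNA synthetases, which load amino acids onto tRNA, 12 rose and 1 fell (median 0.36). Mars, the methionine enzyme, was at 16.3, 18.4 and 18.2 FPKM in the controls and at 45.2, 71.7 and 64.9 FPKM in ClpX cKO (1.70 ± 0.16). Iars (1.29 ± 0.13) and Gars (1.10 ± 0.14), for isoleucine and glycine, followed. Vars, the valine enzyme and the only one called lower, was at 98.6, 113 and 72.7 FPKM in the controls and at 43.1, 39.5 and 38.1 FPKM in ClpX cKO (-1.19 ± 0.16). Of the 17 mitochondrial synthetases 10 rose and 3 fell (median 0.33). Of 21 amino acid transporters 12 rose and 3 fell (median 0.29), with Slc3a2 (0.85 ± 0.11) and Slc7a5 (0.79 ± 0.11), the 2 chains of the leucine carrier, among those that rose and the glutamate carrier Slc1a2 (-0.76 ± 0.12) among those that fell.

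**Figure D4:**
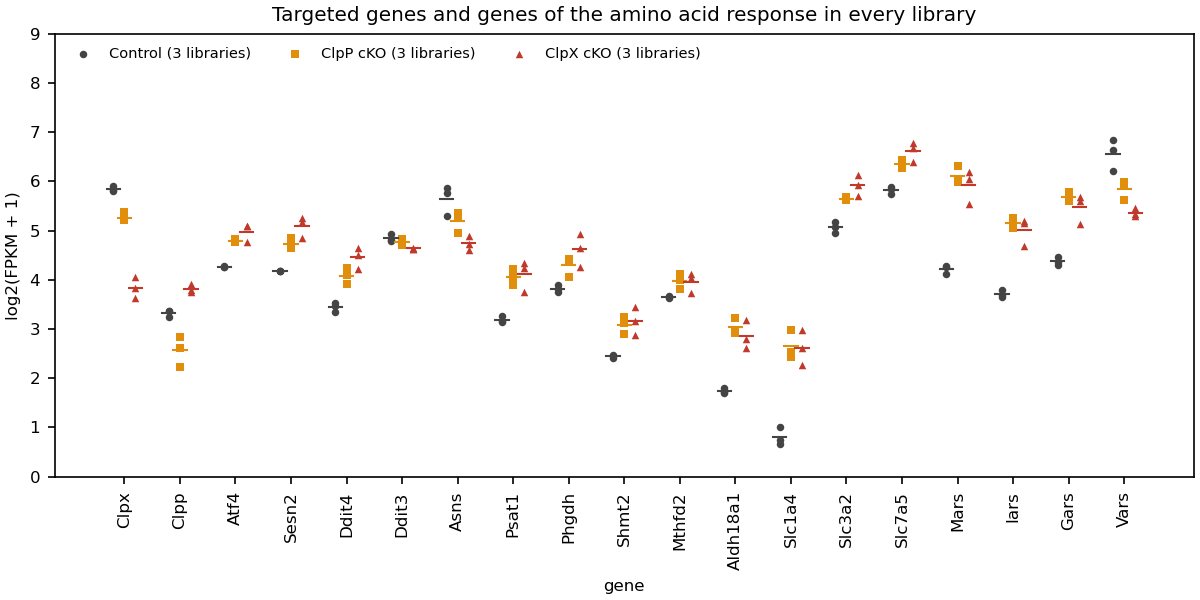
The targeted genes Clpx and Clpp and genes of the stress response and amino acid supply are shown as log2(FPKM + 1) per library for control (dark grey), ClpP cKO (orange) and ClpX cKO (red), with short lines at group means. Slc1a4, Mars, Iars and Gars lie well above the controls in both knockouts, and Asns and Vars below them.

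Promoters are shown for this group because several of its members moved together. The windows are RefSeq promoters on GRCm38.p6, from 250 bases before to 50 bases after a gene's start. They were found by gene identifier, or failing that by symbol or synonym, for 10284 of the 12827 tested protein-coding genes. They were searched on both strands for TGATGNAAN, a form of the element bound by C/EBP and ATF4 dimers. Of 32851 windows in all 3.95% held it, and 2.95% of those of tested protein-coding genes. Among the latter it was in 2.58% of windows of genes that rose and 4.05% of those that fell. For changes of 2-fold or more the shares were 5.71% of those that rose and 5.12% of those that fell. It was in 5 of 13 windows of cytosolic synthetases, those of Gars, Iars, Yars and Tars, which rose, and Aars, which was not called. It was in 2 of 17 windows of amino acid transporters, Slc1a4 and the uncalled Slc7a7, and in that of Asns, which fell. The other stress and amino acid lists held it in Chac1 and Got1, which were not called, and in Herpud1, which fell. The stretches below run from 120 bases before to 30 bases after the start and show the match in capitals in 3 genes that rose and in Asns, which did not. They are chr11:20332684-20332833 (minus strand) for Slc1a4, chr6:55037881-55038030 (plus) for Gars, chr13:49682010-49682159 (plus) for Iars and chr6:7693180-7693329 (minus) for Asns.
Slc1a4: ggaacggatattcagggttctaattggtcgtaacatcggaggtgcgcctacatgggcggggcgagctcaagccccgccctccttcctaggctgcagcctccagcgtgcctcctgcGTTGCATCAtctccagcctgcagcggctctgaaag
Gars: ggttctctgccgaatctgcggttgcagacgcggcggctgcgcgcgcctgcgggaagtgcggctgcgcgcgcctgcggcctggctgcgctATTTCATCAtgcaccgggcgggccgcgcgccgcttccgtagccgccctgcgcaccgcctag
Iars: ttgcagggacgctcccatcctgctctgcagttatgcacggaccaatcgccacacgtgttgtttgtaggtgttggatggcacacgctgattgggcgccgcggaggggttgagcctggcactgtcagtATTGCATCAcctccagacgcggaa
Asns: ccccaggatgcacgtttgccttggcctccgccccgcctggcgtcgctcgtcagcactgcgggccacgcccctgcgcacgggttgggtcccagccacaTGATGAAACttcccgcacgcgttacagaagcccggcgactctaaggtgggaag
The match begins 5 bases before the start in Slc1a4, and runs across it. It begins 31 bases before the start in Gars, 23 before in Asns and 6 after in Iars. A match describes these letters in this window and says nothing on binding.

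The title of the study names mTORC1, the kinase complex that couples amino acids to growth. Its transcripts showed both arms higher: of 32 core subunits and activators 20 rose and 4 fell (median 0.31), and of 23 inhibitors 12 rose and 3 fell (median 0.23). Mtor itself was at 55.3, 72.5 and 42.4 FPKM in the controls and at 55.8, 50.5 and 35.2 FPKM in ClpX cKO, and Rptor at 5.49, 6.02 and 5.8 FPKM and at 5.7, 5.7 and 6.18 FPKM. Both groups overlapped and neither gene was called. Among lysosomal activators Rragb (0.92 ± 0.13), which is X-linked, Lamtor3 (0.76 ± 0.09) and Lamtor4 (0.70 ± 0.14) rose. The S6 kinase genes Rps6kb1 (0.60 ± 0.07) and Rps6kb2 (0.88 ± 0.08) rose, while the cap-binding Eif4e (-0.64 ± 0.11) and Pdpk1 (-0.65 ± 0.09) fell. Among inhibitors Tsc2 (0.56 ± 0.09) and Sesn1 (0.72 ± 0.08) rose, and Tsc1 was not called (0.10 ± 0.07). These are transcript levels and do not measure the activity of the kinase.

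Of 28 genes of sterol and fatty acid synthesis, which mTORC1 also drives, 17 rose and 5 fell (median 0.40). Ebp (0.83 ± 0.11), a sterol isomerase, Scd2 (0.88 ± 0.09), a fatty acid desaturase, and Fasn (0.65 ± 0.12), the fatty acid synthase, rose. Fdft1, which makes squalene, fell from 102, 105 and 95.1 FPKM to 70.9, 46.7 and 52 FPKM (-0.85 ± 0.14), as did Cyp51 (-0.65 ± 0.16), whose testis transcripts make meiosis-activating sterol.

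Autophagy genes split, 14 of 31 higher and 12 lower (median 0.11, -0.03 among genes of at least 5 FPKM). The mitophagy receptor Bnip3 rose from 3.7, 3.76 and 3.69 FPKM to 6.18, 7.26 and 8.49 FPKM (0.81 ± 0.11), and Atg5 rose by 0.78 ± 0.10. The receptor Nbr1 fell from 93.1, 99.9 and 62.1 FPKM to 37.1, 28.3 and 29.2 FPKM (-1.38 ± 0.18). Antioxidant genes split, 13 of 29 higher and 10 lower (median 0.04, negative without ClpX cKO 3, 0.29 under quantile normalization). The sperm thioredoxins Txndc2 (-2.22 ± 0.26), Txndc8 (-1.56 ± 0.22) and Nme8 (-1.46 ± 0.16) fell, and Gpx4, the peroxidase that also builds the sperm midpiece, fell from 537, 537 and 410 FPKM to 277, 209 and 218 FPKM (-1.07 ± 0.14). The matrix superoxide dismutase gene Sod2 was at 8.97, 8.57 and 10 FPKM in the controls and at 8.33, 8.95 and 8.66 FPKM in ClpX cKO, with no call.

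Of 27 p53 targets and apoptosis genes 18 rose and 3 fell (median 0.58). Bax, which opens the outer mitochondrial membrane, was at 4.7, 4.4 and 5.26 FPKM in the controls and at 9.94, 11.6 and 12.7 FPKM in ClpX cKO (1.10 ± 0.10). The p53 targets Phlda3 (1.17 ± 0.18), Btg2 (1.08 ± 0.15), Ccng1 (0.88 ± 0.13) and Cdkn1a (0.87 ± 0.11) rose, Zmat3 fell (-0.53 ± 0.10), and Bbc3 was not called (0.15 ± 0.13). Among 22 interferon-stimulated and nucleic acid sensing genes 14 rose and 2 fell (median 0.69), and another 14 of the list did not pass the filter. H2-D1 (1.23 ± 0.22), B2m (1.04 ± 0.24) and Bst2 (0.94 ± 0.21) led the increases. Tmem173, which encodes the sensor adaptor STING, was at 0.637, 1.17 and 1.02 FPKM in the controls and at 0.773, 1.24 and 1.48 FPKM in ClpX cKO. Isg20, an exonuclease, fell from 21.6, 21.9 and 24.2 FPKM to 12.3, 7.19 and 7.94 FPKM (-1.25 ± 0.18). H2-D1 and B2m are expressed in most somatic cells, and the part of these cells in the increase was not tested.

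Germ cell genes changed by stage. Of 12 spermatogonial markers 10 rose and 1 fell (median 0.64), and their summed level went from 86.5 to 95.1 FPKM in the controls to 131 to 162 FPKM in ClpX cKO. Kit, the receptor of differentiating spermatogonia, was at 3.5, 4.56 and 4.05 FPKM in the controls and at 8.68, 8.42 and 8.79 FPKM in ClpX cKO (0.94 ± 0.09). Stra8 itself, whose promoter drives the Cre, rose from 9.41, 10 and 9.28 FPKM to 14.6, 18.5 and 16.6 FPKM (0.73 ± 0.08). Zbtb16, a marker of undifferentiated spermatogonia, rose by 0.79 ± 0.12. The 1 marker of the list that fell was Gfra1 (-0.34). Its call was lost under several alternatives, among them own totals (-0.22) and quantile normalization (-0.27).

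Of 50 genes of synapsis and recombination 23 rose and 10 fell (median 0.25). Early genes were among those that rose: Dmc1, the recombinase of meiotic breaks, went from 9.35, 9.38 and 8.68 FPKM to 14.2, 15.9 and 16.7 FPKM (0.71 ± 0.08), Meiob rose by 0.96 ± 0.11 and X-linked Tex11 by 0.71 ± 0.12. Spo11, which makes the breaks, was at 17.6, 15.1 and 21.4 FPKM in the controls and at 24, 21.7 and 19.3 FPKM in ClpX cKO, with overlap and no call. Syce2, of the central element, fell from 48.9, 50.2 and 27.8 FPKM to 24, 22.8 and 21.2 FPKM (-0.83 ± 0.20). Of 16 pachytene markers 12 fell and none rose (median -0.54, -0.32 with own totals and -0.15 under quantile normalization), with Adam3 (-1.07 ± 0.16) and Spag6 (-1.01 ± 0.21) among them. Mybl1, the master factor of pachytene, was not called, at 18.8, 20.3 and 19.1 FPKM in the controls and 19, 18.5 and 17.3 FPKM in ClpX cKO.

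Division genes leaned down, 16 of 36 lower and 8 higher, with a median of -0.06 that became 0.02 under quantile normalization and 0.12 with own totals. Ccna1, the cyclin required to leave meiotic prophase, fell from 74.3, 80.2 and 84 FPKM to 51.8, 34.3 and 40.7 FPKM (-0.91 ± 0.13). Aurkc (-0.78 ± 0.11) and Plk1 (-0.70 ± 0.11) fell, whereas Ccnb3, an X-linked cyclin of early prophase, rose (0.83 ± 0.16), as did the proliferation marker Mki67 (0.49 ± 0.08). Cdk1 was not called (0.06 ± 0.08). The piRNA pathway, which silences transposons, had 8 of 25 genes higher and 9 lower, with a median of -0.07 that became 0.28 under quantile normalization and 0.15 with own totals. Fkbp6 (0.80 ± 0.13) and Pnldc1 (0.65 ± 0.15) rose, and Gtsf1 fell from 134, 143 and 129 FPKM to 80.2, 67.4 and 64.6 FPKM (-0.93 ± 0.10).

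Regulators of the spermatid programme fell in 18 of 22 and rose in 2 (median -0.65). Crem, which switches on many haploid genes, was at 31.2, 29.3 and 31.1 FPKM in the controls and at 22.1, 16.4 and 16.7 FPKM in ClpX cKO (-0.71 ± 0.11). Its coactivator Fhl5 fell from 139, 151 and 110 FPKM to 49.7, 26.9 and 29.5 FPKM (-1.92 ± 0.24). Sox30 (-1.04 ± 0.14), the general factor form Gtf2a1l (-0.98 ± 0.11) and Hmgb4 (-2.31 ± 0.23) fell, while somatic-type Gtf2a1 (0.27 ± 0.07) and X-linked Taf7l (0.64 ± 0.09) rose. Genes that store and translate spermatid mRNA fell in 16 of 25 and rose in 5, with a median of -0.38 that became 0.03 under quantile normalization. Papolb (-1.05 ± 0.16) and Fxr1 (-0.89 ± 0.11) fell, whereas Dazl, which acts from spermatogonia to meiosis, rose from 53.1, 52.3 and 57.2 FPKM to 83, 96.9 and 104 FPKM (0.79 ± 0.10), together with Cpeb1 (0.82 ± 0.10).

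The structural genes of the spermatid fell most. Of 20 genes of chromatin compaction 14 fell and 1 rose (median -1.94, -1.47 under quantile normalization). Reads of Prm1, Prm2, Tnp1 and Tnp2 together took 0.764, 0.691 and 0.322% of gene reads in the controls and 0.0995, 0.0714 and 0.0734% in ClpX cKO, means of 0.592 ± 0.237% and 0.0814 ± 0.0157% (SD, n = 3 each). Control 3 held less than the other controls and still more than every knockout library. Outer dense fibre, fibrous sheath and midpiece genes fell in 34 of 36 (median -1.38, -0.96 under quantile normalization). The centrosomal Cntrob (0.59 ± 0.09) was the 1 that rose. Akap4, the main protein of the fibrous sheath and X-linked, was at 486, 544 and 286 FPKM in the controls and at 121, 67 and 71.8 FPKM in ClpX cKO (-2.32 ± 0.29). Odf1 (-2.22 ± 0.27), Smcp (-2.33 ± 0.27) and Spem1 (-2.67 ± 0.34) fell likewise.

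Acrosome and sperm-egg fusion genes fell in 30 of 36 and rose in 1 (median -1.08, -0.71 under quantile normalization). Izumo1, the sperm ligand of the egg receptor, was at 28.4, 22.2 and 25.2 FPKM in the controls and at 14.9, 8.46 and 10.4 FPKM in ClpX cKO (-1.12 ± 0.20). Actl7a (-1.68 ± 0.23), Spaca9 (-2.04 ± 0.24) and Izumo2 (-1.66 ± 0.23) fell further, and Tex101, which spermatocytes also express, rose (0.49 ± 0.10). Axoneme and flagellum genes fell in 70 of 81 (median -0.70, -0.38 under quantile normalization). Tekt5 (-1.41 ± 0.18) and Cfap157 (-1.15 ± 0.18) were among the largest decreases. Of 21 CatSper and other sperm ion channel genes 20 fell (median -0.82, -0.44 under quantile normalization), with Catsper1 at 70.6, 63.4 and 74 FPKM in the controls and 40, 19.6 and 23.8 FPKM in ClpX cKO (-1.35 ± 0.24). Adcy10, the soluble adenylyl cyclase of sperm, fell by 1.51 ± 0.19. Of 17 testis-specific kinases and partners 14 fell (median -1.03), led by Tssk6 (-2.65 ± 0.33).

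The promoters of these genes are shown because they fell together and because CREM and the RFX factors are known to act on such genes. TGANNTCA, a relaxed form of the cAMP response element that CREM binds, was in 14.1% of all windows and 13.5% of those of tested protein-coding genes. It was in 9.98% of windows of genes that rose and 18.6% of those that fell, and in 31.1% of the 820 windows of genes that fell 2-fold or more. By list, it was in 17 of 33 acrosome windows (51.5%), 7 of 18 of chromatin compaction (38.9%), 11 of 29 of fibre, sheath and midpiece (37.9%) and 7 of 66 of the axoneme (10.6%). In other lists that fell it was in 5 of 18 windows of spermatid regulators (27.8%), 4 of 16 of testis enzyme forms (25%) and 3 of 17 of ion channels (17.6%). It was also in 2 of 14 of testis-specific kinases (14.3%), 1 of 18 of RNA storage (5.56%) and 1 of 27 of heat shock genes (3.7%). Lists that rose varied too, with 6 of 20 windows of sterol and fatty acid synthesis (30%), 5 of 19 of interferon-stimulated genes (26.3%) and 0 of 14 of mitochondrial synthetases. GTTNCNATG, a form of the RFX half-site, was in 3.7% of all windows, 3.73% of tested protein-coding genes, 7.8% of genes that fell 2-fold or more, 18.2% of axoneme windows (12 of 66) and none of the 33 acrosome windows. TGANNTCA and TGATGNAAN share their first letters, but no stretch can match both from the same base on the same strand. Below, capitals mark TGANNTCA in Prm1 (chr16:10796794-10796943, minus strand), Tnp1 (chr1:73015870-73016019, minus) and Akap4 (chrX:7067395-7067544, plus), and GTTNCNATG in the axoneme genes Spef1 (chr2:131174781-131174930, minus) and Cfap52 (chr11:67965613-67965762, minus).
Prm1: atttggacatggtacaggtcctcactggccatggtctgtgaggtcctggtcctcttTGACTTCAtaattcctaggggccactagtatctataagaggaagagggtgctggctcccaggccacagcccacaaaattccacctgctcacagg
Tnp1: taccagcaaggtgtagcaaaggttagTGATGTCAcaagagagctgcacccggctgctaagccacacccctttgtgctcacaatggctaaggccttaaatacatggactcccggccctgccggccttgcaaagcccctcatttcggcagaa
Akap4: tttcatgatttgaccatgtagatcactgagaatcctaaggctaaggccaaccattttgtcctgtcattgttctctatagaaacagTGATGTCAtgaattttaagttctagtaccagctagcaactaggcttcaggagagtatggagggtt
Spef1: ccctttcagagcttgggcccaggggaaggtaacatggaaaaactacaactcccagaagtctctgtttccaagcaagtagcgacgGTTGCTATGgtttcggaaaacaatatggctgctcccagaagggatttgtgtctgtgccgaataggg
Cfap52: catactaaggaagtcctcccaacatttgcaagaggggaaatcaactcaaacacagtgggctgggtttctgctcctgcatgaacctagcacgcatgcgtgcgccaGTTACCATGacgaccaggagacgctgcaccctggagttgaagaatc
The match begins 64, 94 and 35 bases before the start in Prm1, Tnp1 and Akap4, and 36 and 16 bases before it in Spef1 and Cfap52. Spef1 and Cfap52 both fell (-0.73 and -0.68), and they were chosen after their values were seen.

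Markers of the somatic cells of the testis rose. All 15 tested Sertoli cell markers rose (median 1.03). Summed levels in this and the next paragraph are over all listed markers, tested or not. For Sertoli cells they were 718 to 747 FPKM in the controls and 1274 to 1817 FPKM in ClpX cKO. Inha, the inhibin subunit, was at 90.9, 85.7 and 86 FPKM in the controls and at 174, 186 and 260 FPKM in ClpX cKO (1.21 ± 0.15). Rhox5 (1.23 ± 0.16), Ctsl (1.12 ± 0.13) and Sox9 (1.08 ± 0.11) rose with it. Macrophage and immune markers rose in 10 of 12 (median 0.79, summed level 46.6 to 60.1 FPKM in the controls and 93.3 to 112 FPKM in ClpX cKO), with C1qa (1.06 ± 0.15) and Fcer1g (1.10 ± 0.13) among them. Peritubular and stromal markers rose in 8 of 11 (median 0.68, 1.11 without Control 3 and ClpX cKO 1), such as Dcn (0.95 ± 0.16), with summed levels of 68.9 to 105 FPKM and 106 to 165 FPKM.

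Of 9 Leydig cell markers 3 rose (median 0.68, 0.36 without Control 3 and ClpX cKO 1), and their sums overlapped, 244 to 443 FPKM in the controls and 402 to 631 FPKM in ClpX cKO. Nr5a1 rose (0.92 ± 0.11), while the hormone gene Insl3 was at 104, 85 and 72.3 FPKM in the controls and at 154, 101 and 144 FPKM in ClpX cKO, with no call. Endothelial markers mostly failed the filter, with 3 of 8 tested and 1 higher, and the sums overlapped at 7.16 to 7.87 FPKM and 7.31 to 9.48 FPKM. Of 4 tested erythroid markers 1 fell and none rose (median 0.29, -0.24 without Control 3 and ClpX cKO 1), with sums of 28.5 to 49.2 FPKM and 25.5 to 63 FPKM. No listed marker of these types was at 0 in all libraries. In the same libraries spermatid genes fell, and the part of a changed share of cells in any list above was not tested.

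Genes of protein synthesis rose more often than they fell. Of 81 cytosolic ribosomal protein genes 48 rose and 1 fell (median 0.33, 0.55 with own totals and 0.78 under quantile normalization), with Rpl14 (0.98 ± 0.15), Rpl10 (0.95 ± 0.13) and Rpl10a (0.92 ± 0.12) rising most. Near-identical pseudogenes could take reads from such genes, so single values are uncertain. Proteasome genes rose in 18 of 42 and fell in 6 (median 0.17). Psme2, an interferon-inducible activator subunit, rose (1.12 ± 0.21), while Psme4 (-0.96 ± 0.14), the activator used in spermatids, fell along with the inhibitor Psmf1 (-1.55 ± 0.20) and the core subunit Psma6 (-1.06 ± 0.12). Heat shock genes fell in 20 of 33 and rose in 5, with a median of -0.30 that became 0.02 under quantile normalization. Those that fell most were testis forms, Hspa1l (-2.44 ± 0.31) and Dnajb8 (-2.40 ± 0.27), and the general forms Hspb1 (0.99 ± 0.13) and Hspa8 (0.64 ± 0.16) rose. Of 15 tested replication-dependent histone genes, of 65 listed, 1 rose and 4 fell (median -0.26, -0.54 without Control 3 and ClpX cKO 1). Most transcripts of these genes lack a poly(A) tail and are poorly captured.

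**Figure D5:**
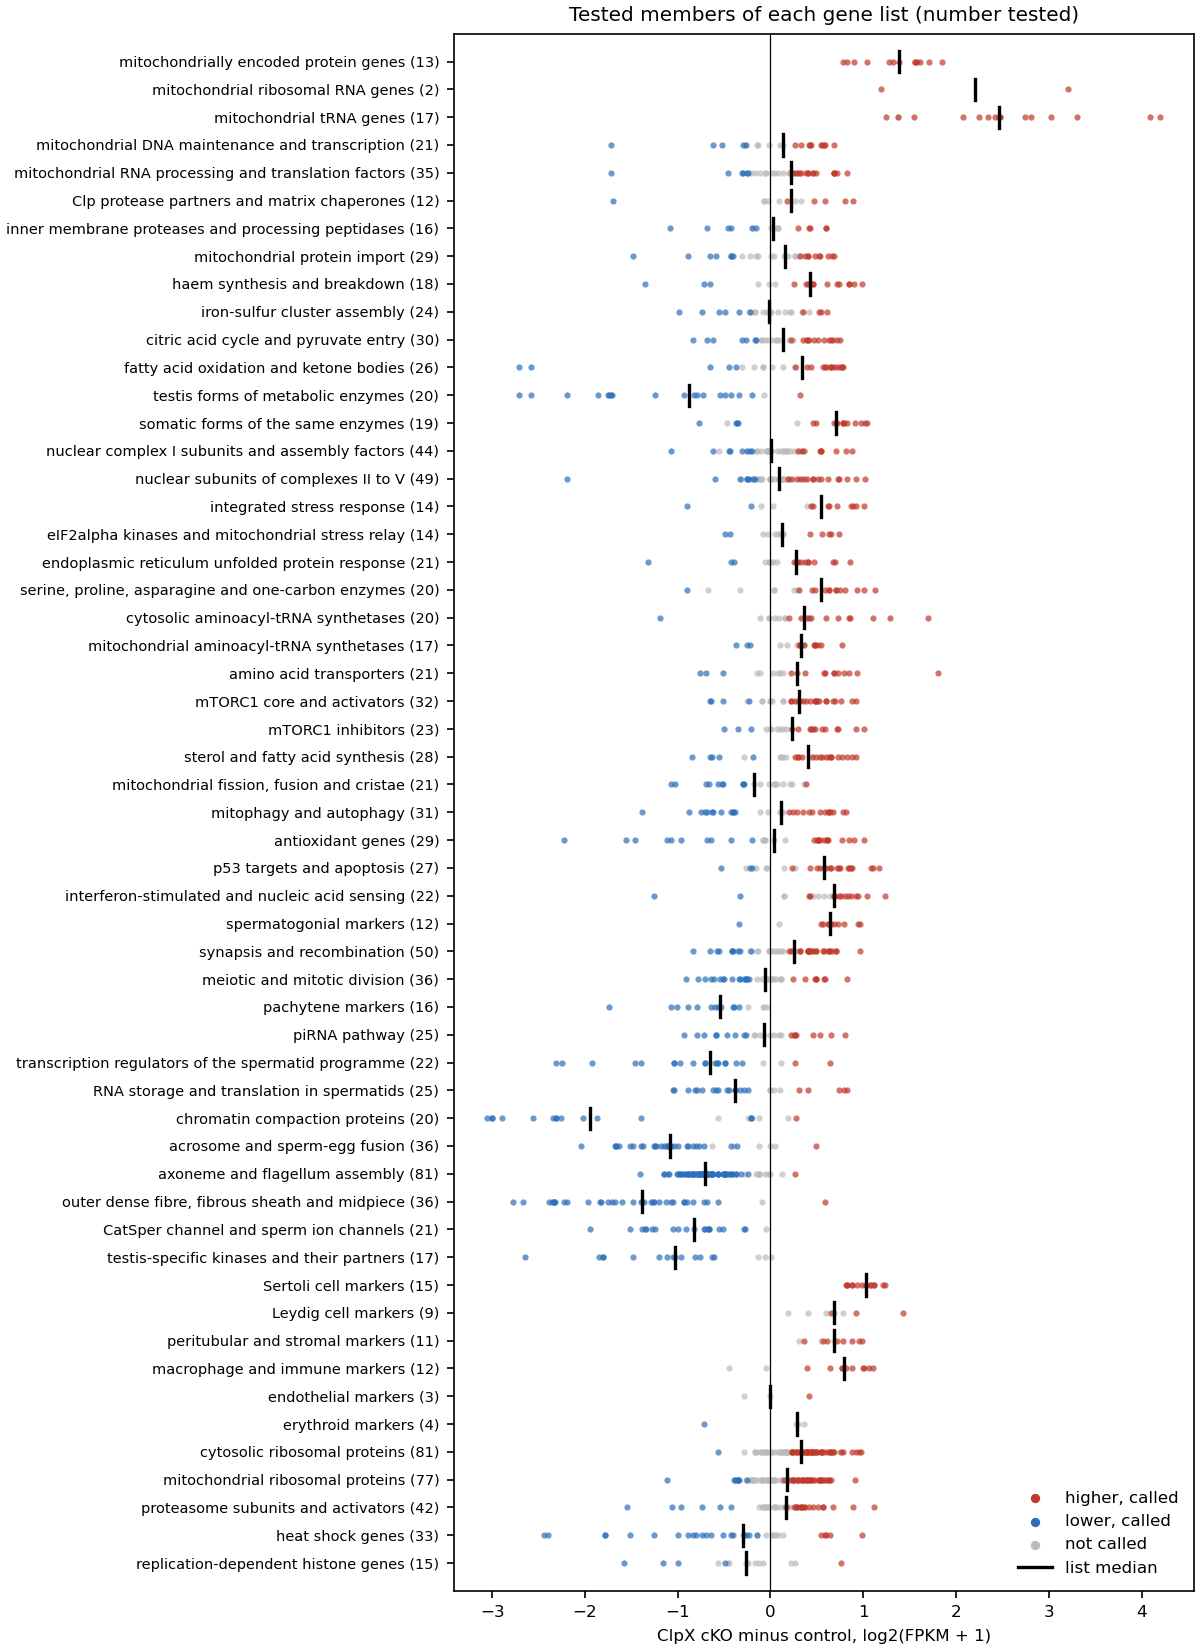
Every tested member of 55 gene lists is plotted by its log2 change (ClpX cKO minus control), red where called higher, blue where called lower and grey where not called, with a black bar at the list median and the number tested in brackets. Mitochondrially encoded and Sertoli genes lie to the right of 0, and spermatid lists from chromatin compaction to testis-specific kinases lie to the left.

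To ask which of these changes go with ClpX rather than with loss of either Clp subunit, ClpX cKO was tested against ClpP cKO in the same fit. Only 18 of 17266 genes (0.104%) were called, 8 higher and 10 lower in ClpX cKO. The count moved with single libraries. It was 4758 without ClpX cKO 1, 1 without ClpX cKO 2 and 6 without ClpX cKO 3. It was 7, 8 and 445 without Control 1, Control 2 and Control 3. By limma it was 0 without ClpP cKO 1, where 3148 genes had an unadjusted p under 0.05, 3 without ClpP cKO 2, and 0 without ClpP cKO 3, where 3677 genes did. With all libraries 4801 genes had an unadjusted p under 0.05, and limma voom on the recovered reads called 40. Besides Clpx (-1.43) and Clpp (1.25), each the deleted gene of 1 group, the called genes included mt-Tl1 (1.02), mt-Rnr2 (0.96), mt-Nd2 (0.90) and mt-Nd1 (0.82), as log2 differences of ClpX cKO from ClpP cKO. Gm28661, a nuclear gene whose sequence matches mt-Co2, was called as well (0.73). Of the 18, Atp5e had the widest difference (-2.28, limma adjusted p = 0.015), and its ClpP cKO values overlapped those of the controls. Scgn, which encodes the calcium sensor secretagogin, was at 7.25, 8.33 and 7.07 FPKM in the controls, 3.9, 2.78 and 3.27 FPKM in ClpP cKO and 0.55, 0.776 and 1.23 FPKM in ClpX cKO. Zscan12, a zinc finger gene, was at 12.8, 12.5 and 12.9 FPKM in the controls, 9.83, 10.2 and 10.2 FPKM in ClpP cKO and 7.14, 6.42 and 7.25 FPKM in ClpX cKO. In both genes ClpP cKO lay between the other groups and did not overlap the controls. The largest differences of this comparison were named only where ClpX cKO and ClpP cKO did not overlap, so that separation was set by the rule.

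For the amino acid genes no difference between the knockouts was called. Mars was at 65.3, 62.4 and 78.8 FPKM in ClpP cKO against 45.2, 71.7 and 64.9 FPKM in ClpX cKO, and Slc1a4 at 4.77, 4.42 and 6.93 FPKM against 3.79, 6.87 and 5.15 FPKM, so the knockouts overlapped. For the spermatid genes Prm1 and Akap4 the ClpX cKO values were all lower than those of ClpP cKO, without a call. Prm1 was at 1097, 874 and 1063 FPKM in ClpP cKO against 395, 291 and 301 FPKM in ClpX cKO (difference -1.62, limma adjusted p = 0.081), and Akap4 at 214, 159 and 171 FPKM against 121, 67 and 71.8 FPKM (-1.10, limma adjusted p = 0.086). A p above the threshold does not show that the knockouts acted alike. Both knockouts are compared with the same 3 controls, so their changes against control are not independent. Side by side, the list medians against control in ClpX cKO and in ClpP cKO were 1.39 and 0.55 for mitochondrially encoded protein genes, 1.03 and 0.55 for Sertoli cell markers, -1.94 and -0.99 for chromatin compaction, -1.38 and -0.86 for fibre, sheath and midpiece genes and 0.36 and 0.43 for cytosolic synthetases. The synthetases are the 1 list of these 5 whose median was not farther from 0 in ClpX cKO.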

How the data were processed

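RNA of 9 libraries (3 control, 3 ClpP cKO, 3 ClpX cKO) was sequenced from total RNA with a SMARTER mRNA-Seq kit, per the labels' protocols. The authors deposited 1 table of FPKM values per gene, and the submitters' processing notes name GRCm38 (mm10); the aligner, counter and strand setting are not given in the sources used here. Together with the deposited gene lengths, the steps between low values gave back whole reads for 100% of values (within 0.01 of a step), 14334436 to 17021685 gene reads per library. The library totals implied by the FPKM values were proportional to median-of-ratios size factors. Read number limits the precision of low genes.

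Groups came from the labels. Genes with a mean of at least 1 FPKM over the 9 libraries were tested on log2(FPKM + 1) with limma 3.58.1 (R 4.3.3, trended variance, all 9 libraries in 1 fit, Benjamini-Hochberg adjustment, threshold 0.05). On this scale fold changes of low genes are understated. The fit was tested on simulated data. Sums, medians and shares were computed in Python 3.11.15 with pandas 2.3.3 and numpy 2.4.6. Genes named are the 12 largest protein-coding changes in each direction, among called genes whose groups did not overlap. Also named are up to 4 called members of each of 55 gene lists with 2 of the fewer direction, and set members of known role. To these come 6 genes in each direction against ClpP cKO, and those named otherwise were chosen after their values were seen. Some genes of these lists are counted but not reported here by name. The members and lists were chosen with earlier results of these data known. The 21 alternatives covered the filter, pseudocount, scaling, variance prior, a fit on recovered reads, a replicate block and left-out libraries.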

Additional observations from a re-analysis of the deposited data

How the results depend on the processing

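The number of genes called by limma between ClpX cKO and control was 11326, fell to 6871 of 9404 where the mean had to reach 5 FPKM (fewer genes tested), was 9337 of 12827 among protein-coding genes, and was 10486 with only the 6 libraries compared, and lay between 10988 and 12000 under the other settings that kept all 9 libraries. Leaving out 1 library each gave 9825 to 11779. Between ClpX cKO and ClpP cKO the count was 18, and it was 40 with limma voom on recovered reads, 89 with only the 6 libraries compared, 29 under quantile normalization and 5149 without Control 3 and ClpX cKO 1. Leaving out 1 library each gave 0 to 4758; the cause was not tested. The labels' replicate numbers were tried as a block. With this replicate block the counts were 11291 and 1. Same-numbered control and ClpX cKO libraries deviated together only weakly (correlations 0.13, 0.05 and 0.19), and Control 2 correlated more with ClpX cKO 1 (0.07). Same-numbered ClpP cKO and ClpX cKO libraries gave 0.23, 0.17 and 0.02, and differently numbered ones -0.24 to 0.11. The labels give no link between these samples beyond the shared number.

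Of 7632 values of 367 named genes under the alternatives, 7417 kept direction and call, 153 lost the call, 45 gained it and 17 reversed. Under quantile normalization the log2 changes that reversed, among the genes reported, were 0.12 for Brdt, 0.17 for Cox6b2, 0.08 for Cox8c, 0.39 for Cyct, 0.03 for Ddit3, 0.32 for Ddx4, 0.23 for Hspa2, 0.43 for Hspa9, 0.28 for Pdha2, 0.07 for Pink1, 0.50 for Piwil1 and 0.03 for Rpl39l. With own totals they were 0.01 for Ddit3, 0.15 for Hspa9, 0.02 for Pdha2 and 0.19 for Polg. The cause was not tested beyond the shift of all genes that these scalings make.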
